A study of Sus scrofa with 36 samples.

Results

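Amphiregulin (AREG) and the other genes of the epidermal growth factor (EGF) receptor system were examined in the adrenal glands of 36 growing castrated male pigs. The family taken here comprised 9 genes of the 11759 genes that could be named on the array, namely the ligands AREG, TGFA, EREG, HBEGF, EGF and BTC and the receptors EGFR, ERBB2 and ERBB3. They were represented by 26 probes with 21 distinct sequences, of which 21 probes were in the deposited table of log2 values. The family was selected on the HS against TN difference of AREG seen in an earlier look at these data, so the difference between temperatures is given for its members as a description, with no p-value and with counts past the threshold from which nothing is read.

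The ligands of this family are made as membrane-anchored precursors, and proteases of the ADAM type cut the growth factor from the cell surface. AREG and TGFA bind EGFR alone, whereas HBEGF, BTC and EREG also bind ERBB4. ERBB2 has no known ligand and works as the partner of the other receptors, and ERBB3, which has little kinase activity of its own, binds neuregulins. Binding leads to receptor dimers that signal through the RAS-ERK and PI3K-AKT pathways. In the ovary, another steroid-producing organ, AREG, EREG and BTC are known as genes that are induced through cAMP. The adrenal gland combines a steroid-producing cortex with a medulla of chromaffin cells that make catecholamines.

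There were 6 groups of 6 pigs each: Creole, Large White and their cross (Large White x Creole), each under thermoneutral (TN) and heat stress (HS) conditions. TN pigs were kept at 24 °C and slaughtered before the rise in temperature. HS pigs were slaughtered after up to 5 days at 32 °C according to the protocol, although the sample labels give 30 °C. Pigs entered the climatic room at 11 weeks of age, received no drug or transgene and had free access to feed. As all HS pigs were slaughtered later than all TN pigs, temperature, slaughter day, the added days of age and any change of feed intake cannot be told apart. Littermates were of the same breed and were split between its TN and HS groups, and pen mates shared a group. The labels give neither litter nor pen, and the pigs of a group are not fully independent. P-values may be too small, above all between breeds, as each breed came from few litters. Between HS and TN pigs, leaving litter out may also make them too large. Each pig had 1 array, and the arrays lay on 5 slides with as many TN as HS arrays on each. The scanner software called 42436 to 48060 probes of an array well above background, and the correlation between arrays ran from 0.982 to 0.996 over all probes of the table. Values are log2 intensities after quantile normalization by the authors, and a difference of 1 stands for a 2-fold change. They were not corrected for background, and levels were never compared between different probes. According to the paper, whole adrenal glands were taken. All 9 marker genes of cortex cells and 5 of the 8 of chromaffin cells had a probe in the table. So had all 6 of adipocytes and all 5 of skeletal muscle, and the share of each tissue in a sample was not measured.

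AREG, EREG and BTC lie next to each other on chromosome 8 of the pig assembly Sscrofa11.1. In this stretch of 431 kb the RefSeq annotation lists EPGN (8:70266867-70301250), a further ligand of the family, then EREG (8:70351316-70372530), AREG (8:70417935-70428106) and BTC (8:70645721-70697538), with a long noncoding RNA between EPGN and EREG. EGF lies on the same chromosome but far away (8:112235607-112330062). The remaining members are on other chromosomes, with TGFA at 3:71948232-72054257, HBEGF at 2:142102455-142115192, EGFR at 9:139302410-139474632, ERBB2 at 12:22591621-22621384 and ERBB3 at 5:21474218-21495040.

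The AREG result turned on 2 places in the transcript, whose probe letters are shown because they decide which part of the mRNA was measured. The first probe starts at base 878 of the AREG transcript and has an open frame that runs into a stop codon, in capitals, with 5 bases left behind it:
AREG, base 878: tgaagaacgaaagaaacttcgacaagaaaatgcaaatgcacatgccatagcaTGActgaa
The other 3 AREG probes lie farther 3′, from base 1013 onwards. Of these, 2 have the same 60 bases and the third shares 57 of them. The first 30 bases common to all 3 are:
AREG, 3′ probes: gatcataagaagacagaacctttttgttct
No run longer than 7 bases was common to the stop codon probe and the 3′ probes, so that both places are separate measurements of the same transcript. The probe at base 137 of the TGFA transcript and the probe at base 547 of the HBEGF transcript had an open frame over their whole length:
TGFA, base 137: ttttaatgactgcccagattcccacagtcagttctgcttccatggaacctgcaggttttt
HBEGF, base 547: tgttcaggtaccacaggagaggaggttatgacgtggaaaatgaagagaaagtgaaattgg

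AREG was lower in the HS pigs of each breed. For the brightest 3′ probe, Creole TN pigs ranged from 8.80 to 10.41 around a median of 9.43, and Creole HS pigs from 7.07 to 8.72 around a median of 7.76. These groups did not overlap. Large White TN pigs ranged from 7.24 to 9.61 with a median of 8.44, and Large White HS pigs from 6.64 to 8.58 with a median of 7.24, so that these groups did overlap. In the cross, TN pigs ranged from 7.57 to 10.23 with a median of 8.99 and HS pigs from 5.71 to 8.17 with a median of 7.09. Over the breeds, 12 of the 18 TN pigs were above the highest HS pig, and 8 of the 18 HS pigs were below the lowest TN pig. The only HS pig that was not below the TN mean of its breed was Large White HS pig 5, at 8.58.

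**Figure D1:**
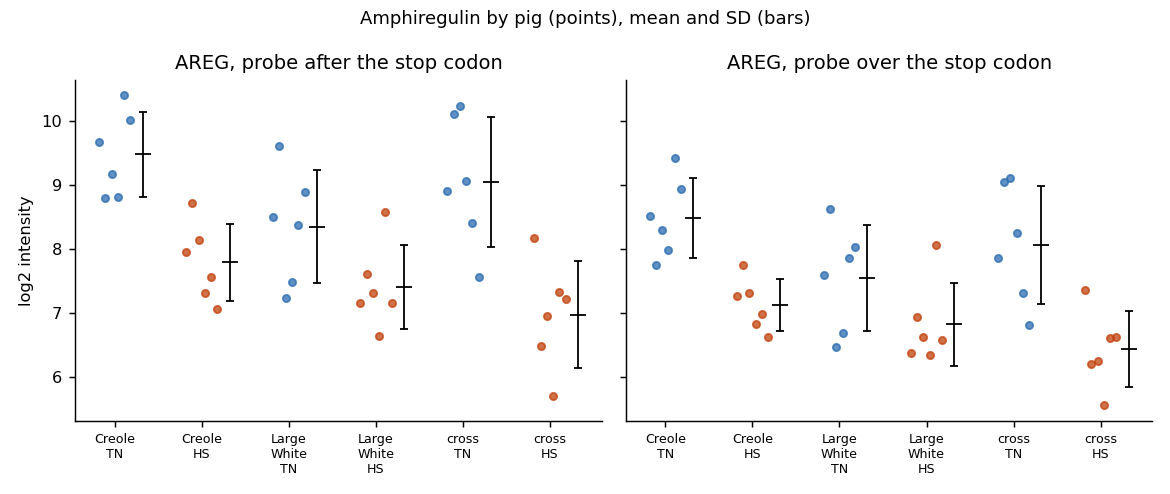
Log2 intensity of AREG (y axis) in each of the 36 pigs by breed and temperature (x axis), for the brightest 3′ probe and for the probe over the stop codon. Points are pigs, with TN in blue and HS in orange, and bars are the group mean and SD (n = 6). HS pigs sit lower in each breed with both probes, and Large White is the breed with the narrowest gap.

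Over the breeds, the 18 TN pigs had a mean AREG value of 8.96 ± 0.94 (SD) and the 18 HS pigs of 7.39 ± 0.74 (SD). The difference, adjusted for breed, was -1.57 on the log2 scale (SE 0.26), a 2.96-fold lower intensity. The stop codon probe, which shares no sequence with it, gave 8.03 ± 0.85 in TN and 6.80 ± 0.60 in HS pigs (SD, n = 18 each), a difference of -1.23 (SE 0.22) or 2.35-fold. The remaining 3′ probes gave -1.54 (SE 0.25) and -1.52 (SE 0.25). The stop codon probe and the brightest 3′ probe followed each other closely over the 36 arrays (r = 0.99, and 0.98 for deviations from the group means). On each of the 5 slides HS pigs were lower on average, with differences from -0.99 to -2.05. In whole tissue, fewer cells that make a transcript and less of it per cell cannot be told apart.

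Ordered by their mean, the groups were Creole TN (9.48 ± 0.66), cross TN (9.05 ± 1.01), Large White TN (8.35 ± 0.88), Creole HS (7.79 ± 0.60), Large White HS (7.41 ± 0.66) and cross HS (6.98 ± 0.83; SD, n = 6 each). All TN groups preceded all HS groups, but each pair of neighbours in this order differed by less than the SD of either group. The spread between pigs of the same group was wide for AREG. Its within-group SD of 0.79 was exceeded by 1.16% of the probes of the table.

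TGFA, a ligand that like AREG binds EGFR alone, had a slightly lower mean in HS pigs with all 6 of its probes, 2 of which passed the FDR. The brightest probe ranged from 10.34 to 11.02 (median 10.69) in TN pigs and from 9.98 to 10.91 (median 10.58) in HS pigs. The groups overlapped, and 16 of the 18 HS pigs were below the TN mean of their breed. The difference was -0.20 (SE 0.06) for this probe and ran from -0.15 (SE 0.08) to -0.28 (SE 0.06) over the 6 probes. The sequence at base 137 as printed above is on the array in a pair of copies. The extreme value came from the copy named by its RefSeq transcript, and the copy listed with base 137 gave -0.25 (SE 0.06).

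HBEGF, a heparin-binding ligand, had a lower mean in HS pigs with each of its 3 probes, none of which passed the FDR. Its brightest probe ranged from 8.97 to 9.58 (median 9.18) in TN pigs and from 8.51 to 9.40 (median 9.07) in HS pigs, a difference of -0.13 (SE 0.06). It was lower in 12 of the 18 HS pigs than the TN mean of the breed, and the difference was 0.02 among Creole, -0.12 among Large White and -0.29 among cross pigs (SE 0.10 each). The probe at base 547 gave -0.17 (SE 0.06). Compared with AREG, these differences were small, and TN and HS pigs overlapped, with 5 of the 18 HS pigs below the lowest TN pig for the brightest probe.

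Of the other ligands, EREG was not detected. Its probe was not well above background on any of the 36 arrays and was not in the deposited table. It ranged from 4.63 to 5.02 in TN and from 4.67 to 5.04 in HS pigs in the scanner values. EREG, the neighbour of AREG, was therefore not measurable with this probe, and no change of it could have been seen. Of the 5 EGF probes, 2 were in the table. The brighter ranged from 5.56 to 6.07 in TN and from 5.69 to 6.31 in HS pigs and differed by 0.04 (SE 0.05), and it was well above background on 35 arrays. The other differed by 0.05 (SE 0.07) and was well above background on 22 arrays. BTC, the neighbour of AREG on the other side, had 1 probe in the table, which ranged from 5.72 to 6.46 in TN and from 5.58 to 6.55 in HS pigs. Its difference was 0.01 (SE 0.06), and it was well above background on 34 arrays. The other BTC probe was well above background on 4 arrays and was not in the table. As values were not corrected for background, differences of EGF and BTC probes this near to it may be understated.

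None of the receptor probes passed between HS and TN pigs. EGFR, the receptor of AREG and TGFA, ranged from 11.16 to 11.98 (median 11.43) in TN pigs and from 11.20 to 12.32 (median 11.57) in HS pigs. Its 3 probes, which overlap in sequence, differed by 0.08 (SE 0.08), 0.11 (SE 0.08) and 0.06 (SE 0.08). On slide 1, with 2 arrays of each condition, the difference was 0.70, while on the remaining slides it lay between -0.10 and 0.12. ERBB2 ranged from 10.19 to 10.63 in TN and from 10.25 to 10.68 in HS pigs, with a difference of 0.06 (SE 0.04). ERBB3 ranged from 12.25 to 12.75 in TN and from 12.31 to 12.83 in HS pigs, with a difference of 0.11 (SE 0.05). In each receptor TN and HS pigs overlapped, and no HS pig was below the lowest TN pig.

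**Figure D2:**
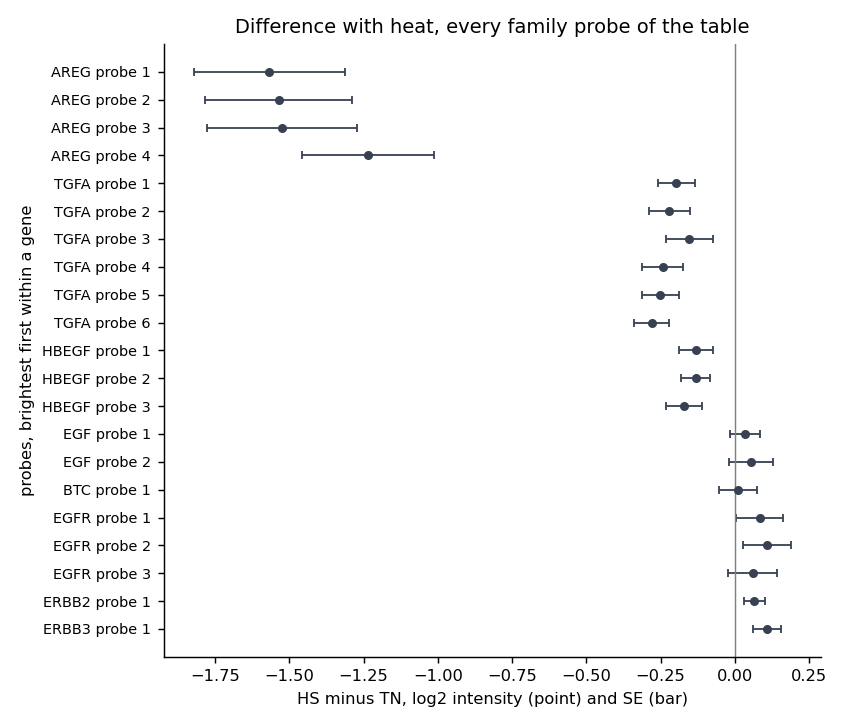
Difference between HS and TN pigs on the log2 scale, adjusted for breed (x axis, point), with its SE (bar), for the 21 family probes of the table (y axis, brightest first within a gene). The 4 AREG probes lie between -1.57 and -1.23, TGFA and HBEGF lie a little below 0, and EGF, BTC and the receptors lie between 0.01 and 0.11, with none of these past the FDR.

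Over all 45348 probes of the table, 413 (0.911%) passed an FDR of 0.05 between HS and TN pigs (limma), 186 higher (0.410%) and 227 lower (0.501%). Among the 21 family probes, 6 passed, all lower in HS pigs: the 4 AREG probes and both copies of the TGFA probe at base 137. As these values chose the family, nothing is read from this count. Nearest to the threshold on its inner side was the TGFA copy with the smaller difference, at -0.25, and on its outer side the TGFA probe at base 839, at -0.24 (SE 0.07).

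**Figure D3:**
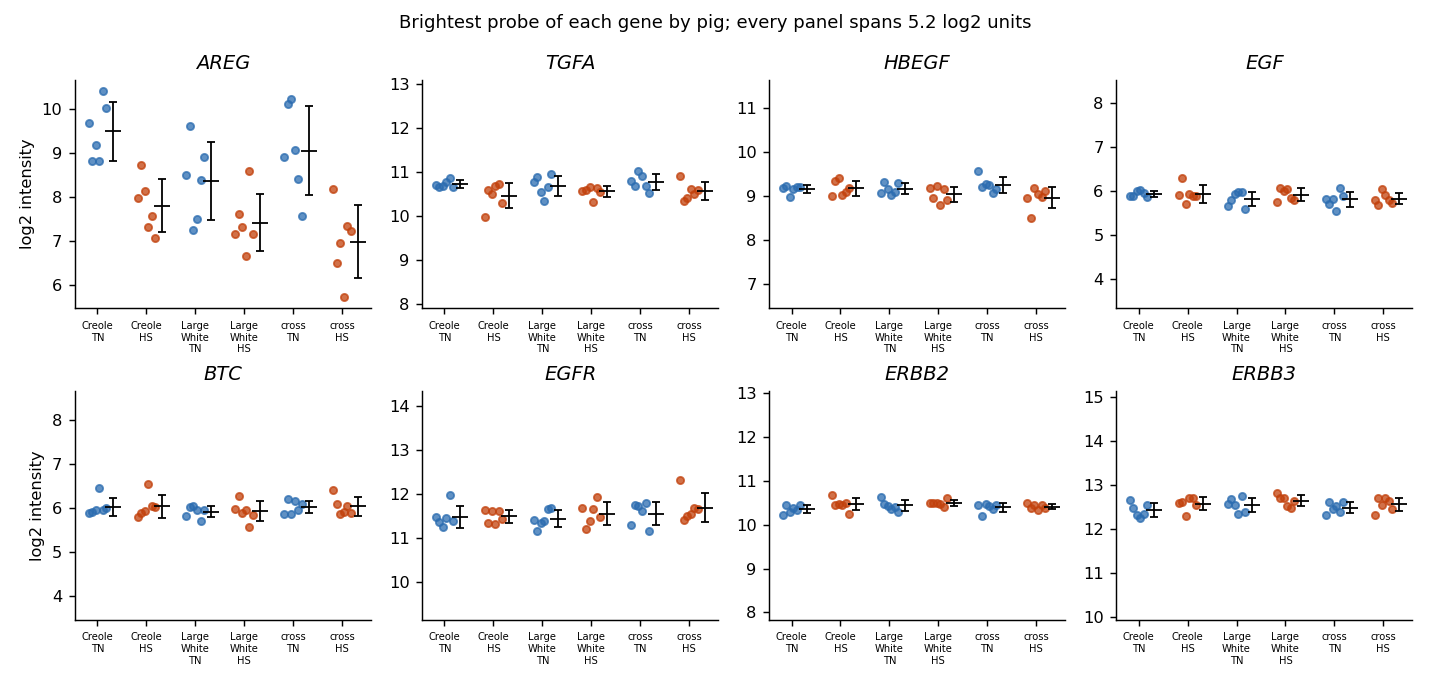
Log2 intensity of the brightest table probe of 8 family genes (y axis) in each pig by group (x axis), with the group mean and SD (n = 6). All panels span the same number of log2 units but start at different values, since levels of different probes are not comparable. AREG stands out by the distance between TN and HS pigs and by the spread within each group.

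By breed, the difference of AREG was -1.69 in Creole pigs, -0.94 in Large White pigs and -2.07 in cross pigs (SE 0.43 each). Whether these differed between breeds was tested as an interaction. The adjusted p was 0.982 (limma, F = 1.75 with an unadjusted p of 0.189), so that a difference in response between the breeds was not detectable with 6 pigs per group. The F value was not steady. It ran from 0.66 to 4.02 over the alternatives of processing and from 1.08 to 2.91 with a pig left out. None of the 21 family probes passed for the interaction, nor did any of the 45348 probes (0.000%). At an unadjusted p under 0.05, 1914 probes (4.22%) were found, none of them of the family. The stop codon probe gave -1.36, -0.72 and -1.63 in the same order (SE 0.38 each), so that both probes ranked the breeds alike.

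Between breeds, the ligand and receptor probes did not pass the test although differences between breeds were common in this tissue. Large White and Creole pigs differed in 5207 of the 45348 probes (11.5%), of which 5.98% of all probes were higher and 5.5% lower in Large White, and no family probe was among them. AREG was lower in Large White than in Creole pigs by a log2 difference of -0.76 (SE 0.31, 95% interval from -1.39 to -0.12), with an adjusted p of 0.118 (limma). The stop codon probe gave -0.62 (SE 0.27, adjusted p = 0.144). This direction was seen in both TN and HS pigs, in which the Creole means were 9.48 and 7.79 and those of Large White were 8.35 and 7.41. Without Large White HS pig 5, 1 of the 3′ AREG probes passed, at -0.84 (SE 0.28, adjusted p = 0.0494).

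For the other members the intervals of the breed difference were narrower and included 0. That of TGFA was 0.03 (95% interval from -0.12 to 0.19), that of HBEGF -0.07 (from -0.21 to 0.08), that of EGFR 0.01 (from -0.19 to 0.20), that of ERBB2 0.06 (from -0.03 to 0.14) and that of ERBB3 0.09 (from -0.03 to 0.21). A difference between breeds as large as the AREG estimate lay outside each of these intervals. The cross was compared with the mean of its parent breeds. Here 188 probes (0.415%) passed over the whole table and none of the family. The AREG difference was -0.25 (SE 0.27, 95% interval from -0.80 to 0.30), with an adjusted p of 0.811. This value ran from -0.40 to -0.08 over the alternatives of processing and from -0.38 to -0.10 with a pig left out.

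**Figure D4:**
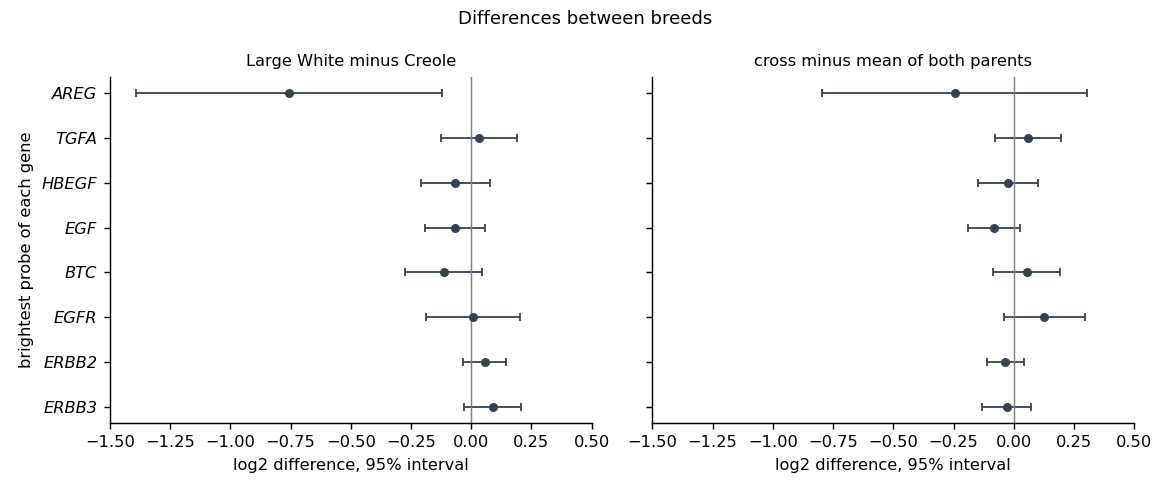
Log2 difference between Large White and Creole pigs, and between the cross and the mean of both parent breeds (x axes, point and 95% interval), for the brightest probe of 8 family genes (y axis). AREG has the widest interval, from -1.39 to -0.12 in the left panel, and no gene passed the test after adjustment over all probes.

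The genes around the receptors were examined from lists of the pathway. Of the other family ligands and the receptor ERBB4, only the neuregulins NRG3 and NRG4 had a probe in the table, and neither passed between HS and TN pigs (-0.02, SE 0.05, and 0.04, SE 0.07). Of 6 genes of ligand shedding with a probe, none passed, beside 146 of all 10194 named genes (1.43%). ADAM17, the main protease that releases AREG and TGFA, was 9.93 ± 0.25 in TN and 9.76 ± 0.24 in HS pigs (SD, n = 18), a difference of -0.17 (SE 0.08) with an adjusted p of 0.334 (limma). ADAM9 had the highest difference of the list, 0.07 (SE 0.08), which did not pass either.

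Of 17 signalling genes below the receptors, 14 were lower and 3 higher in HS pigs, beside 5418 lower of all 10194 named genes. None of the 17 passed the test, beside 1.43% of all named genes. The median difference of the 17 was -0.02, close to the median of -0.01 over all named genes. MAP2K1, the kinase that activates ERK, was lower by -0.13 (SE 0.04, adjusted p = 0.129 by limma) and in 17 of the 18 HS pigs relative to the TN mean of the breed. Of 11 inhibitors and feedback genes, 7 were lower and 4 higher and none passed. SPRY2, a feedback inhibitor of receptor signalling, differed by -0.21 (SE 0.07, adjusted p = 0.128), and LRIG3 had the highest difference of this list, 0.08 (SE 0.10), neither of which passed.

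Among 13 genes that ERK signalling is known to induce, only EGR1 passed between HS and TN pigs, with lower values in HS pigs. This immediate early transcription factor was 10.06 ± 0.52 in TN and 9.45 ± 0.45 in HS pigs (SD, n = 18), a difference of -0.61 (SE 0.16, adjusted p = 0.0498 by limma). It was below the TN mean of the breed in 16 of the 18 HS pigs. This call was at the edge of the threshold, and over all alternatives of processing and of slides left out the adjusted p ran from 0.0436 to 0.258. With each of the 36 pigs left out in turn, it passed 9 times. Of the other 12, IER3 (-0.47, SE 0.14, adjusted p = 0.0998) and FOSL1 (-0.40, SE 0.13, adjusted p = 0.118) were lower without passing, PHLDA1 (0.28, SE 0.10) and ETV1 (0.21, SE 0.08) were higher without passing, and FOS differed by -0.19 (SE 0.17). The list as a whole had 8 lower and 5 higher genes. Over all pathway lists, EGR1 was the 1 gene of 60 with a probe (1.67%) that passed between HS and TN pigs. Of all named genes, 146 of 10194 (1.43%) had a probe that passed, 45 higher and 101 lower, so that the shares were alike.

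Of 7 genes that cAMP signalling induces, none passed between HS and TN pigs, beside 1.43% of all named genes. STAR, the cholesterol carrier of steroid synthesis and a target of corticotropin, differed by -0.15 (SE 0.06, adjusted p = 0.257), and the nuclear receptor gene NR4A1 by -0.04 (SE 0.06). Of 4 genes of prostaglandin synthesis and reception, a known route to AREG induction in the ovary, none passed. PTGS2, the inducible cyclooxygenase, differed by 0.06 (SE 0.08).

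Between the breeds, 3 of the 60 genes of these lists with a probe in the table (5.0%) passed, against 1675 of the 10194 named genes (16.4%). SHC1, an adaptor that links receptors to RAS, was higher in Large White than in Creole pigs with all 5 probes, the brightest by 0.52 (SE 0.07, adjusted p = 3.25e-06 by limma). The prostaglandin E2 receptor gene PTGER3 was higher with all 3 probes, the brightest by 0.56 (SE 0.13, adjusted p = 0.0034). STAR was lower with 8 of its 10 probes, the brightest by -0.34 (SE 0.08, adjusted p = 0.00296). In the cross, none of the genes of the pathway lists passed against the mean of both parents, beside 0.608% of all named genes.

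Beyond the group means, AREG levels of individual pigs were set against those of the other members, as deviations from the group means of the 36 pigs. These do not use the difference between HS and TN. AREG and TGFA varied together, with Pearson's r = 0.498 and Spearman's rho = 0.525 (permutation test within groups, p adjusted over 7 pairs of 0.0303 and 0.0219). Without the 2 pigs farthest in AREG, r was 0.432. With the slide removed r was 0.480. Within TN pigs r was 0.700 and within HS pigs 0.315, a contrast that was not tested. AREG and its receptor EGFR had r = 0.478 and rho = 0.399 (adjusted p = 0.0303 and 0.0675, permutation test), r was 0.523 without the 2 farthest pigs, and it dropped to 0.374 with the slide removed, which did not pass (adjusted p = 0.104).

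The relation with TGFA also did not pass in the means of all probes of a gene (r = 0.355, adjusted p = 0.145), and both relations missed the threshold when slide 4 or slide 5 was left out. Leaving out cross HS pig 1, Creole TN pig 5 or cross TN pig 6 had the same effect on both, and leaving out Large White HS pig 5 or cross TN pig 2 on that with EGFR, with r between 0.394 and 0.481 in these cases. HBEGF had r = 0.335 (adjusted p = 0.171), and EGF, BTC, ERBB2 and ERBB3 lay between -0.213 and 0.033 (adjusted p from 0.449 to 0.862). All pairs share arrays and their normalization.

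**Figure D5:**
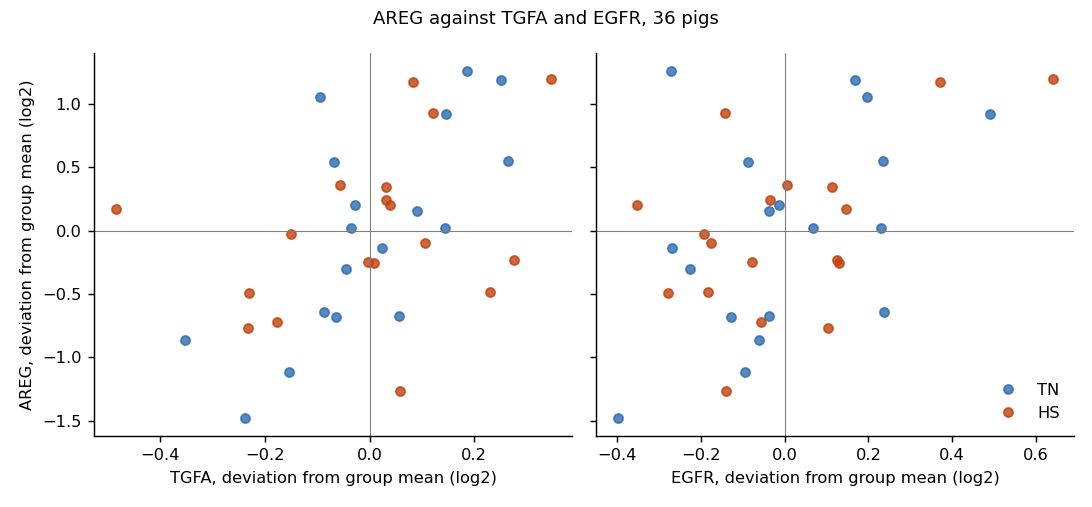
Deviation of each pig from its group mean in AREG (y axis, log2) against that in TGFA and EGFR (x axes, log2), brightest probes, 36 pigs, with TN in blue and HS in orange. Pigs with more AREG than their group tended to have more TGFA (r = 0.498) and EGFR (r = 0.478), with wide scatter in both panels.

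The genes whose deviations were most like those of AREG were sought among 10176 named genes. Each gene was represented by its probe with the r largest in size, which favours genes with more probes. The central 95% of all r values lay between -0.43 and 0.41. The highest r was that of TM4SF18, a membrane protein with 4 transmembrane segments (r = 0.726 over the 36 pigs), followed by IGSF8, a cell surface protein of the immunoglobulin superfamily (r = 0.712). Among the next were the ubiquitin ligase component FBXW7 (0.634), RAPGEF6 (0.629), the mitochondrial carrier SLC25A36 (0.627), LRRC59 (0.622), SIRPA (0.614), STX12 (0.600) and ZMIZ1 (0.584). The order is a description, since these are the extremes of many values that share the same arrays.

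TM4SF18 had a mean of 12.70 in TN and 11.96 in HS pigs, a difference of -0.74 (SE 0.18). IGSF8 differed by -0.31 (SE 0.09) and FBXW7 by -0.39 (SE 0.12). STX12 differed by 0.02 (SE 0.06), so that the likeness within groups did not go with a difference between HS and TN in each of these genes. At the other end were NUDT6 (r = -0.687), the mitochondrial deacylase SIRT5 (-0.664), LRRC39 (-0.661), the carbonic anhydrase CA9 (-0.660) and MAVS (-0.626), which lay between 0.00 and 0.25 higher in HS pigs. With slide effects removed, the r of TM4SF18 was 0.689 and that of NUDT6 -0.641.

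Markers of the cells of the gland were set beside the AREG values, since AREG can be made by epithelial, immune and stromal cells. Of 11 marker lists, none had separate ranges of its summed level in TN and HS pigs. AREG itself overlapped too, from 7.24 to 10.41 in TN and from 5.71 to 8.72 in HS pigs. Overlap therefore does not show that a cell type was unchanged. On the log2 scale, the sum of 9 cortex markers ran from 20.55 to 20.76 in TN and from 20.56 to 20.81 in HS pigs, that of 5 macrophage markers from 13.11 to 14.26 and from 12.99 to 14.21, and that of 3 mast cell and basophil markers from 10.29 to 12.53 and from 10.26 to 12.54. The lists that differed most on average were those of red blood cells (-0.47, 3 genes), macrophages (-0.19) and skeletal muscle (0.14, 5 genes). By direction alone, 8 of 9 cortex cell markers (median difference -0.05) and all 5 chromaffin cell markers (-0.15) had lower values in HS pigs. So had all 3 red blood cell markers (-0.17) and 4 of 5 macrophage markers (-0.13). All 5 skeletal muscle markers (0.15) and 4 of 5 lymphocyte markers (0.05) had higher values. Of all 10194 named genes, 5418 had lower values. Within groups, the r of AREG with the summed level lay between -0.26 and 0.15 for the 11 lists.

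Of the 58 marker genes with a probe in the table, 2 (3.45%) passed between HS and TN pigs, beside 146 of the 10194 named genes (1.43%). NR5A1, the transcription factor that drives steroid synthesis genes of the cortex, fell with 1 of its 4 probes, the brightest (-0.25, SE 0.06, adjusted p = 0.0253 by limma), and its deviations had an r of 0.484 with those of AREG. This call was lost with each of the 5 slides left out (adjusted p from 0.0615 to 0.141) and kept in the other 9 of 14 alternatives. MYH2, a fast myosin of skeletal muscle, rose with 1 of 3 probes (0.47, SE 0.12, adjusted p = 0.0410), a call that was kept with 17 of the 36 pigs left out in turn. Over 13 alternatives its difference ran from 0.29 without slide 2 to 0.93 with the processed signal, and it passed in 9 of them, with an adjusted p of up to 0.287. Between Large White and Creole pigs, 24 of the 58 marker genes (41.4%) passed, beside 16.4% of all named genes. By list, 4 of 9 cortex cell markers and 2 of 6 markers of stroma and capsule were lower in Large White, 4 of 6 adipocyte markers were lower and 2 higher, and 3 of 5 chromaffin cell markers were higher. The lists of macrophages, of mast cells and basophils and of epithelium and mesothelium each had 1 gene lower and 1 higher, and those of endothelium, lymphocytes and skeletal muscle each had 1 gene higher. The part of these markers in the AREG values was not tested.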

How the data were processed

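Adrenal RNA of 36 pigs was labelled with Cy3 and hybridised to 1-colour Agilent arrays, and the authors extracted spot intensities with Agilent Feature Extraction 10.10.1.1. The deposited table holds log2 values of 45348 probes, made by the authors from the median pixel intensity with quantile normalization. It ranks each array as its scanner file does (lowest Spearman's rho 1.00), holds no other samples and was used as deposited, with 93 missing values. Of 60305 probes on the array, 24928 had 1 gene symbol, 7 had several and 35370 had none. Symbols came from the scanner files' gene names (21837), RefSeq transcripts (2462), older symbols (626) and descriptions (3). Probe sequences are those of the scanner files, positions those of RefSeq on Sscrofa11.1.

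Groups were taken from the labels. limma 3.58.1 in R 4.3.3 was fitted over all probes with breed and temperature, with a breed by temperature term for the interaction, and p-values were adjusted by Benjamini-Hochberg (FDR 0.05). In simulated data of these 45348 probes, 99% of changes by 1 and 89% of changes by 0.5 were found between HS and TN. There were 8 false calls. These shares are over all changed probes, and the share for a probe as variable as AREG was not tested. The within-group SD of 0.79 of its brightest probe was exceeded by 1.16% of the probes of the table. Pen, parents and slaughter day, which the authors modelled, are not in the labels and were not used, and neither was litter. Values of probes outside the table came from the scanner files after the same normalization. Correlations were tested with 100000 permutations within groups, two-sided, and with 20000 in each alternative.

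Members and lists were chosen with earlier results of these data known. Named were all members, list genes with a probe past the FDR or otherwise the extremes of a list, and the 10 genes with the highest and 5 with the lowest r with AREG, of which 1 is not reported here. MAP2K1, FOS, NR4A1, PTGS2, IER3, FOSL1, PHLDA1 and ETV1 were added after their values were seen. Alternatives were the scanner intensity with its own filter (well above background on 9 of 18 arrays of a condition), the processed signal less its 75th percentile, normexp with offset 50, median centring, only probes well above background on all arrays, slide or position as a block, array weights, no covariate, gene means, and each slide and each pig left out.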

Additional observations from a re-analysis of the deposited data

Results flagged for a closer look

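Samples far from the rest of their group were sought in 48 groups (8 genes with 6 groups of 6 pigs), where chance marks about 1 in 20, and 8 stood apart by Dixon's test of the gap to the nearest pig. None was an AREG value. For BTC, Creole TN pig 4 (6.46, others from 5.89 up) and Creole HS pig 4 (6.55, others from 5.81 to 6.06) were high. For EGFR, Creole TN pig 5 (11.98, others from 11.26 to 11.47) and cross HS pig 1 (12.32, others from 11.41 to 11.69) were high. The latter pigs are also among those that the relation between AREG and EGFR rests on. ERBB2 was low in cross TN pig 2 (10.19, others from 10.36 to 10.46). HBEGF was low in Creole TN pig 3 (8.97, others from 9.17 to 9.22) and in cross HS pig 2 (8.51, others from 8.95 to 9.19). TGFA was low in Large White HS pig 4 (10.33, others from 10.56 to 10.67).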

How the results depend on the processing

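No paired analysis was possible because the labels give no replicate numbers that link pigs of different groups. The AREG difference between HS and TN kept its direction and moved by less than the within-group SD in all 15 alternatives (from -1.81 with the processed signal to -1.41 with normexp) and with each of the 36 pigs left out (from -1.66 to -1.47). Over all probes the count between HS and TN was far less steady, from 34 without slide 3 to 899 with the slide as a block, against 413 as reported. AREG did not pass between Large White and Creole (adjusted p from 0.0603 to 0.376), for the cross (0.629 to 0.976) or for the interaction (0.911 to 1.00) in any alternative. With a pig left out, 0 to 1 family probes passed between the breeds. The r of AREG with TGFA missed the threshold with median centring (0.423), gene means (0.355), and without slide 4 (0.475) or slide 5 (0.457), and ran from 0.438 to 0.598 with a pig left out. That with EGFR missed it with median centring (0.460), the slide removed (0.374), gene means (0.447), and without slide 3 (0.481), slide 4 (0.367) or slide 5 (0.484), and ran from 0.394 to 0.592 with a pig left out. EGR1 kept its call in 6 of 14 alternatives and with 9 of 36 pigs left out, NR5A1 in 9 of 14 and with all 36, and MYH2 in 9 of 13 and with 17. SHC1 and PTGER3 kept theirs in all 14, and STAR in 13. The cause of these changes was not tested. EREG was not well above background on any array, so that no difference of it could be seen.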
